A study of Mus musculus with 6 samples.

Results

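ISG15 is a small ubiquitin-like protein that interferon-treated cells make in quantity and join to the lysines of other proteins. The joining runs through an activating enzyme (E1), a conjugating enzyme (E2) and ligases (E3), in the same order as for ubiquitin, and a protease takes the modifier off again. The genes for these proteins belong to the interferon-stimulated genes (ISGs), and fibroblasts are among the cells in which the system has been studied most. The 6 mouse genes described here are the modifier *Isg15*, the E1 *Uba7*, the E2 *Ube2l6*, the ligases *Herc6* and *Trim25* and the protease *Usp18*. They were found by name in the deposited count table, where each falls on 1 of 51499 loci.

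The RNA-seq data came from wild-type (WT) mouse embryonic fibroblasts (MEFs) that received either a scrambled control siRNA (Scr siRNA) or siRNA against *Yme1l*, with 3 independent cultures in each group, all collected at 72 h. *Yme1l* encodes a protease of the mitochondrial inner membrane, and the question was how its loss changes the transcripts of the cell. Both groups share the same line, which is 3T3 immortalized by its labels and made with SV40 large T antigen by the methods, an expanded clone whose source animals carried loxP-flanked *Yme1l*, and the paper's table of siRNAs was not used here, so whether the knockdown used 1 siRNA or several was not checked. The libraries were stranded, poly-A selected and read from both ends. The Scr siRNA libraries held 45205207, 37260605 and 41929579 counts for replicates 1, 2 and 3, and the Yme1l siRNA libraries held 43630145, 42161756 and 41342446. Levels are given as CPM, a locus's counts divided by its library's total after TMM scaling, on the standard scale of that name, and an error after ± is an SD. Log2 fold changes are Yme1l siRNA over Scr siRNA from edgeR, and a locus was called higher or lower when its Benjamini-Hochberg adjusted p over the 14499 loci tested was under 0.05.

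The targeted gene, *Yme1l1* in the count table, stood at 170, 171 and 171 CPM in the 3 Scr siRNA cultures and at 31.6, 23.4 and 45 CPM in Yme1l siRNA cultures 1, 2 and 3. All 3 treated cultures lay far below the controls, and culture 3 kept the most transcript. The log2 fold change was −2.36 with a standard error of 0.20 (edgeR quasi-likelihood test, Benjamini-Hochberg adjusted p = 3.87e-05, lower in 3 of 3 cultures).

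Transcripts of the modifier, of the E2, of both ligases and of the protease rose after the knockdown, by 2.11-fold to 7.95-fold. Of the 6 member loci, all of which were tested, 5 were called higher, against 28.4% of all loci tested, and 0 were called lower, against 29.6% of all loci. That count was also 0 at an unadjusted edgeR p under 0.05 and with DESeq2 and limma-voom. At the same 5 loci every Yme1l siRNA library stood above every Scr siRNA library, against 31.9% of all loci tested. The median log2 fold change was 1.60 over the 6 loci and 0.01 over all loci. The locus that holds the E1 *Uba7* was the 1 that was not called. Since these are bulk samples, a change in the number of cells that express a gene and a change in RNA per cell cannot be told apart.

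**Figure D1:**
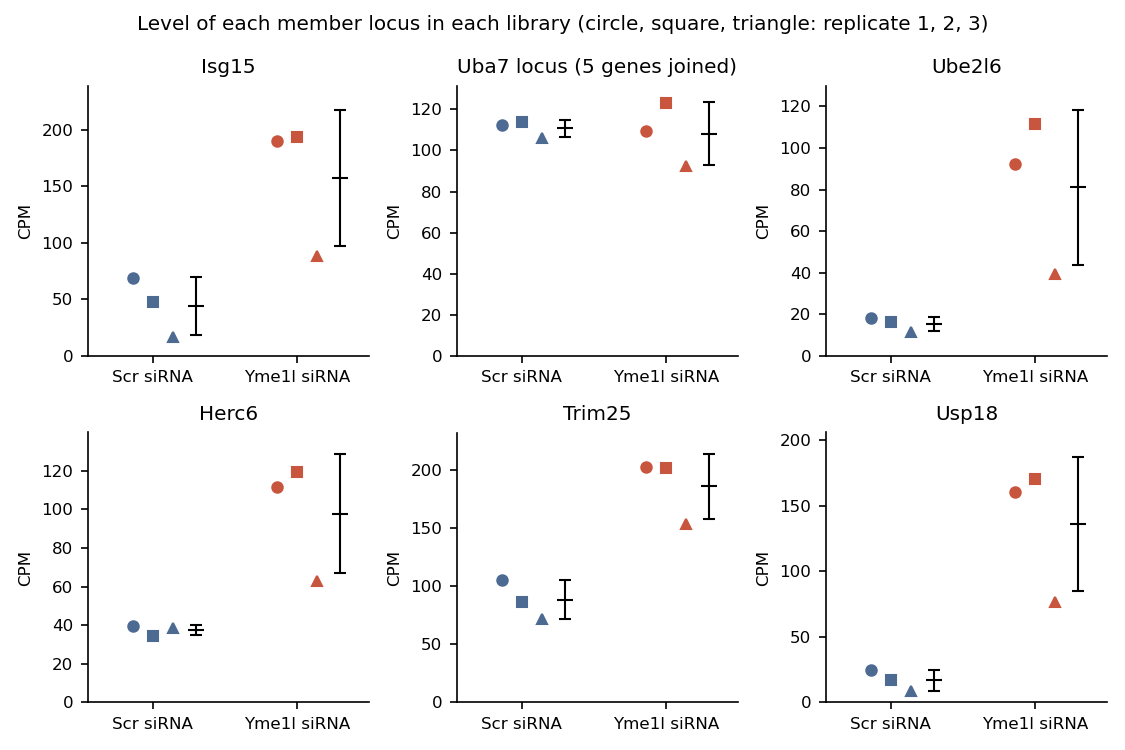
CPM at each of the 6 member loci in each library, with Scr siRNA in blue and Yme1l siRNA in red, circles, squares and triangles for replicates 1, 2 and 3, and bars for the mean and SD of 3 cultures. The red points lie above the blue points at every locus except the one that joins *Uba7* with 4 other genes, and the red triangle is the lowest red point in all 6 panels.

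*Isg15*, the modifier, lies on chromosome 4 at 156199424 to 156200818 (GRCm38, minus strand) and has its locus to itself. Its level was 68.6, 47.4 and 17.0 CPM in Scr siRNA cultures 1, 2 and 3, and 190, 194 and 88.4 CPM in Yme1l siRNA cultures 1, 2 and 3. Replicate 3 was the lowest library of both groups, and the groups did not overlap, although the lowest treated culture was only 1.29 times the highest control culture. The means were 44.3 ± 26.0 CPM and 158 ± 60.0 CPM (n = 3 each). The control cultures alone spanned 4.04-fold, the widest spread among controls at any of the 6 loci, and the treated cultures spanned 2.2-fold. The log2 fold change was 1.83 with a standard error of 0.47 (edgeR adjusted p = 0.00963, higher in 3 of 3 cultures), which is a 3.56-fold rise. A processed pseudogene on chromosome 17, 95.2% identical over 482 bases, had 0 counts in every library.

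The stretch before the *Isg15* start is shown because it carries several copies of a letter pattern associated with interferon-responsive genes, and the stretch before *Ube2l6* is shown beside it because that gene rose by more and carries none. The patterns searched on both strands were the interferon-stimulated response element as GAAANNGAAA (reverse TTTCNNTTTC) and the IRF core as AANNGAAA (reverse TTTCNNTT), whose letters lie within the longer pattern. Each sequence is the 150 bases before the RefSeq start (GRCm38.p6), and capitals mark bases that belong to a match.
Isg15, chr4:156200819-156200968, minus strand: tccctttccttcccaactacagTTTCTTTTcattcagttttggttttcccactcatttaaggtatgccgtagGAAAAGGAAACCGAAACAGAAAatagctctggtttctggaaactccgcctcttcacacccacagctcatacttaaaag
Ube2l6, chr2:84798678-84798827, plus strand: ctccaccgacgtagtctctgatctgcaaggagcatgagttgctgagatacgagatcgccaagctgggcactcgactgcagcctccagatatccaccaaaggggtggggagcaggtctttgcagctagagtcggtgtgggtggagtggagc
The window searched in every gene ran from 250 bases before the start to 50 after it, and 5 of the 6 members were searched. The promoter of *Usp18*, the member with the largest rise, was not analysed here. In *Isg15* the longer pattern matched 3 times in overlapping copies between 78 and 57 bases before the start, and the core matched once more, on the reverse strand, between 128 and 121 bases before it. Of 32851 windows in the table, 3.44% held the longer pattern and 23.9% held the core. *Uba7* and *Trim25* had 1 core match each and no match to the longer pattern, and *Ube2l6* and *Herc6* had neither. A match is a run of letters and no measure of binding, and the lack of one says only that these letters are not in this window.

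*Uba7* encodes the E1 that activates ISG15. Its counts could not be separated, because the authors' locus joins it with *Cdhr4*, *Gm20661*, *Gm20662* and *Ip6k1* over chromosome 9, 107975505 to 108048782, while *Uba7* itself ends at 107984060 on the plus strand. The joined locus stood at 112, 114 and 106 CPM in Scr siRNA cultures 1, 2 and 3 and at 110, 123 and 92.3 CPM in Yme1l siRNA cultures 1, 2 and 3. The groups overlapped, with the highest and the lowest of the 6 values both in the treated group. The log2 fold change of the whole locus was −0.03 with a standard error of 0.10 (edgeR adjusted p = 0.795), and the means were 111 ± 4.06 CPM and 108 ± 15.3 CPM (n = 3 each). Without Yme1l siRNA replicate 3 the value was 0.065, also not called. *Fam212a*, with 175 to 348 counts in a row of its own, overlaps the locus and was called higher at 0.55 (edgeR adjusted p = 0.0174). That call was lost without Scr siRNA replicate 2 or 3 or Yme1l siRNA replicate 2 (edgeR adjusted p 0.0512 to 0.0588). The level of *Uba7* alone is not known from this table.

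*Ube2l6* encodes the E2 that passes ISG15 on to the ligases, and it lies on chromosome 2 at 84798828 to 84810335 (plus strand). It stood at 18.0, 16.4 and 11.4 CPM in Scr siRNA cultures 1, 2 and 3 and at 92.1, 111 and 39.6 CPM in Yme1l siRNA cultures 1, 2 and 3. Treated culture 3 was well below the other treated cultures, and still 2.2 times the highest control. The means were 15.3 ± 3.43 CPM and 81.0 ± 37.2 CPM (n = 3 each), and the treated cultures spanned 2.82-fold, the widest spread of the 6 loci in that group. The rise was 5.31-fold, a log2 fold change of 2.41 with a standard error of 0.35 (edgeR adjusted p = 0.000523, higher in 3 of 3 cultures). The sequence printed above for this gene holds no match to either pattern. A near-identical transcript, *Gm17167*, had 0 counts in every library.

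*Herc6* encodes the ligase that joins ISG15 to most of its targets in mice, and lies on chromosome 6 at 57581000 to 57664632 (plus strand). Its level was 39.7, 34.6 and 38.5 CPM in Scr siRNA cultures 1, 2 and 3, and 112, 119 and 62.7 CPM in Yme1l siRNA cultures 1, 2 and 3. The control cultures lay close together and all treated cultures lay above them, with treated culture 3 again the lowest. The control cultures spanned 1.15-fold, and this was the 1 called member at which control replicate 2, and not replicate 3, was the lowest. The means were 37.6 ± 2.70 CPM and 97.8 ± 30.7 CPM (n = 3 each), a 2.60-fold rise with a log2 fold change of 1.38 and a standard error of 0.21 (edgeR adjusted p = 0.000689, higher in 3 of 3 cultures). The locus starts upstream of the gene at 57476697 and also covers *Gm45193* and *4930533I22Rik* on the same strand, which have no counts of their own, so their share in these values cannot be read. *Ppm1k*, with 191 to 308 counts in a row of its own, overlaps the locus on the other strand.

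*Trim25* encodes a ligase for both ISG15 and ubiquitin that is best known for modifying the RNA sensor RIG-I, and lies on chromosome 11 at 88999376 to 89020293 (plus strand). It stood at 106, 86.7 and 72.3 CPM in Scr siRNA cultures 1, 2 and 3 and at 203, 202 and 153 CPM in Yme1l siRNA cultures 1, 2 and 3. Replicate 3 was the lowest in both groups and the groups did not overlap, with the lowest treated culture 1.45 times the highest control. The rise was the smallest of the 5 called members, 2.11-fold, with means of 88.3 ± 16.8 CPM and 186 ± 28.2 CPM (n = 3 each). Its log2 fold change was 1.08 with a standard error of 0.16 (edgeR adjusted p = 0.000495, higher in 3 of 3 cultures).

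*Usp18* encodes the protease that removes ISG15 from proteins, and its product also restrains signalling at the type I interferon receptor. The gene lies on chromosome 6 at 121245906 to 121270917 (plus strand), and the non-coding *Gm44148* overlaps it on the other strand. The counted locus runs on to 121272685, where *Gm44148* also ends. Whether reads of *Gm44148* enter these counts was not tested. *Usp18* stood at 25.0, 17.1 and 9.03 CPM in Scr siRNA cultures 1, 2 and 3 and at 160, 170 and 76.9 CPM in Yme1l siRNA cultures 1, 2 and 3. The lowest treated culture was 3.07 times the highest control, the widest gap between groups among the 6 loci, and replicate 3 was again the lowest on both sides. The means were 17.1 ± 8.0 CPM and 136 ± 51.2 CPM (n = 3 each). The rise was 7.95-fold, the largest of the 6 loci, with a log2 fold change of 2.99 and a standard error of 0.40 (edgeR adjusted p = 0.000334, higher in 3 of 3 cultures). By log2 fold change it was in place 118 of the 14499 loci tested, followed among the members by *Ube2l6* in place 228, *Isg15* in place 424, *Herc6* in place 735 and *Trim25* in place 1111.

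Yme1l siRNA replicate 3 was the lowest treated library at all 6 member loci, against 38.5% of the loci tested and 45.8% of those called higher. Scr siRNA replicate 3 was the lowest control library at 5 of the 6, *Herc6* being the exception, against 39.3% of the loci tested, and 18.1% of the loci tested had replicate 3 lowest in both groups. Among *Ifnb1* and the interferon regulatory factors listed below, *Ifnb1*, *Irf1* and *Irf7* had replicate 3 lowest in both groups, and *Irf3* and *Irf5* did not. At the *Yme1l1* locus itself, Yme1l siRNA replicate 3 was the treated library with the most transcript left. Whether the amount of *Yme1l1* left bears on the members' levels was not tested. Without that library the log2 fold changes of the 5 called members were all called as well, and over the 6 fits that each left out 1 library they ran from 1.44 to 2.29 for *Isg15*, from 2.12 to 2.73 for *Ube2l6*, from 1.22 to 1.61 for *Herc6*, from 0.94 to 1.22 for *Trim25* and from 2.68 to 3.37 for *Usp18*.

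Ratios of counts within a library, which do not depend on how libraries are scaled, compared the members with the modifier. Each ratio is the log2 of the counts of a member over those of *Isg15*, with 0.5 added to both. For *Usp18* it was −1.45, −1.47 and −0.91 in Scr siRNA cultures 1, 2 and 3 and −0.25, −0.19 and −0.20 in Yme1l siRNA cultures 1, 2 and 3. The protease thus had more counts relative to the modifier in every treated culture than in any control, and its ratio hardly varied among treated cultures. The mean moved from −1.28 ± 0.32 to −0.21 ± 0.03, a difference of 1.06 (n = 3 each, two-sided exact permutation test p = 0.1, Benjamini-Hochberg adjusted over 5 ratios 0.25). With 3 cultures against 3, 0.1 is the smallest p this test can give, so none of these ratios could pass 0.05. The ratio of the joined *Uba7* locus to *Isg15* fell by 2.00 without overlap of the groups (exact permutation p = 0.1, adjusted 0.25).

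For the other 3 enzymes the ratio to *Isg15* overlapped between the groups. The difference was 0.34 for *Ube2l6* (exact permutation p = 0.5), −0.64 for *Herc6* (exact permutation p = 0.5) and −0.88 for *Trim25* (exact permutation p = 0.2). In each case the control cultures varied more than the treated ones, with an SD of 0.70 against 0.18 for *Ube2l6*, 1.06 against 0.14 for *Herc6* and 0.78 against 0.42 for *Trim25*. Each depended on single control cultures. Without Scr siRNA replicate 3 the difference was 0.73 for *Ube2l6*, −0.03 for *Herc6* and −0.43 for *Trim25*, and without Scr siRNA replicate 1 it was 0.05, −1.02 and −1.17.

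*Ube2l3* is the closest relative of *Ube2l6* and works mainly with ubiquitin, and *Herc3* is a small HERC protein like *Herc6*. The log2 ratio of *Ube2l6* to *Ube2l3* was −3.45, −3.58 and −3.88 in Scr siRNA cultures 1, 2 and 3 and −0.84, −0.49 and −2.04 in Yme1l siRNA cultures 1, 2 and 3. The ISG15 enzyme thus stayed the rarer of the pair in counts but came much closer to its relative, by a mean of 2.52 (exact permutation p = 0.1, the smallest possible, adjusted over 2 ratios 0.1). The log2 ratio of *Herc6* to *Herc3* was 0.78, 0.66 and 0.77 in the controls and 2.42, 2.69 and 1.79 in the treated cultures. Here too the groups did not overlap, with a mean difference of 1.56 (exact permutation p = 0.1, adjusted 0.1). *Ube2l3* has near-identical pseudogenes with counts of their own, and it overlaps *Ydjc* on the other strand, so part of its counts may be misplaced.

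Levels of different genes were compared per kilobase of merged exons. In Scr siRNA cultures the order was *Isg15* at 58.6 ± 34.3 CPM per kb, *Trim25* at 15.3 ± 2.93, *Ube2l6* at 7.65 ± 1.72, *Usp18* at 6.12 ± 2.87 and *Herc6* at 4.05 ± 0.29 (n = 3). The modifier was the most abundant. Of the last 3, neither *Ube2l6* and *Usp18* nor *Usp18* and *Herc6* were apart by more than their spread. By merged exons *Ube2l6* and *Herc6* were apart by more than their spread, with *Ube2l6* the higher in every control culture. By the longest transcript they were not, and in Scr siRNA culture 3 *Ube2l6*, at 7.32 CPM per kb, was below *Herc6*, at 8.08. In Yme1l siRNA cultures the order was *Isg15* at 208 ± 79.3 CPM per kb, *Usp18* at 48.6 ± 18.4, *Ube2l6* at 40.6 ± 18.6, *Trim25* at 32.3 ± 4.91 and *Herc6* at 10.5 ± 3.30 (n = 3). The protease had moved above the E2 and *Trim25* and was the highest of those 3 in every treated culture. By merged exons those 3 were not apart by more than their spread. By the longest transcript *Usp18* and *Trim25* were, at 76.6 ± 28.9 and 33.3 ± 5.05 CPM per kb, while *Usp18* and *Ube2l6* were not. The relatives were at 32.1 and 27.6 CPM per kb for *Ube2l3* and at 2.47 and 2.10 for *Herc3*, in controls and treated cultures. The length of the longest transcript raised the level of *Usp18* in treated cultures to 76.6 CPM per kb and that of *Herc6* to 20.5. The order of the 5 members' means within each group was the same by that length. It was the same again in the authors' pooled FPKM, where *Isg15* went from 75.1 to 266, *Usp18* from 10.6 to 85.7, *Ube2l6* from 10.9 to 58.7, *Trim25* from 16.4 to 38.7 and *Herc6* from 10.3 to 27.1.

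Of 9 genes for other enzymes that have been reported to add or remove ISG15, or to share its E2 step, 1 was called higher, 2 were called lower and 6 were not called, against 28.4% higher and 29.6% lower of all loci tested, with a median log2 fold change of −0.15 against 1.60 for the members. The protease gene *Usp2* rose from 2.12 ± 0.46 to 4.85 ± 0.62 CPM, a log2 fold change of 1.19 (edgeR adjusted p = 0.00119). The E2 gene *Ube2e2* fell by 0.90 on the log2 scale (edgeR adjusted p = 0.000609) and the ligase gene *Arih1* fell by 0.19 (edgeR adjusted p = 0.04). The call for *Arih1* held without Yme1l siRNA replicate 3 and was lost when any other library was left out (edgeR adjusted p 0.061 to 0.131) and in 5 of 7 other fits (edgeR or DESeq2 adjusted p 0.051 to 0.0726). Without Yme1l siRNA replicate 3, 4 of the 9 genes were called lower, and without Scr siRNA replicate 3, 2 were called higher.

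The families to which the members belong are set here against all loci tested, of which 28.4% were called higher and 29.6% lower. Among 9 other E1 genes 0 were called higher by edgeR and by DESeq2 (1 at an unadjusted edgeR p under 0.05), limma-voom called 1, and 3 were called lower, with a median log2 fold change of 0.01. The 3 were *Atg7* of the autophagy conjugation systems at −0.97 (edgeR adjusted p = 4.41e-05) and the NEDD8 E1 subunits *Nae1* at −0.66 (edgeR adjusted p = 0.000953) and *Uba3* at −0.48 (edgeR adjusted p = 0.00424). Without Yme1l siRNA replicate 2 the SUMO E1 gene *Sae1* was called higher (edgeR adjusted p = 0.0394). Of 32 other E2 genes 8 were called higher and 12 lower, with a median of −0.11, and the smallest adjusted p among them belonged to *Ube2d1* at −1.26 (edgeR adjusted p = 1.99e-05). None of them rose by as much as *Ube2l6*, the highest being the locus that joins *Ube2g2* and *Sumo3*, at 0.94.

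Of the 4 other HERC ligase genes 1 was called higher and 2 lower. *Herc1* was at 0.34 (edgeR adjusted p = 0.0212), *Herc2* at −0.36 (edgeR adjusted p = 0.0388), *Herc3* at −0.24 (edgeR adjusted p = 0.0388) and *Herc4*, not called, at −0.15 (edgeR adjusted p = 0.264). These calls were lost in some fits, unlike that of *Herc6*. The call for *Herc1* was lost without Scr siRNA replicate 1 or 2 or Yme1l siRNA replicate 1 (edgeR adjusted p 0.0732 to 0.0853). That for *Herc2* was lost without Scr siRNA replicate 2 or 3 or Yme1l siRNA replicate 1 or 2 (edgeR adjusted p 0.0502 to 0.116). That for *Herc3* was lost when any library except Yme1l siRNA replicate 1 was left out (edgeR adjusted p 0.0617 to 0.107), and *Herc4* was called lower without Yme1l siRNA replicate 3 (edgeR adjusted p = 0.0464). *Ube2l3*, at −0.22 (edgeR adjusted p = 0.0422), kept its call without Scr siRNA replicate 3 and lost it when any other library was left out (edgeR adjusted p 0.0599 to 0.134). Among the 7 other fits the call was lost in 3 for *Herc3* (such as DESeq2, adjusted p = 0.0567), in 2 for *Ube2l3* and in 1 for *Herc2*.

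Among 47 other genes of the USP family, to which *Usp18* belongs, 42 were tested, 14 were called higher and 12 lower, against 28.4% and 29.6% of all loci tested, and the median log2 fold change was near 0 (−0.0003). The 4 with the smallest adjusted p were *Usp1* at 1.13, *Usp15* at 0.97, *Usp37* at 0.61 and *Usp36* at 0.85, each below the 2.99 of *Usp18*. The largest value in the family list was 1.90. *Usp37* overlaps *Cnot9* on the other strand, and *Usp1* has a near-identical copy with at most 96 counts in a library. Of 13 other ubiquitin and ubiquitin-like modifier genes 5 were called higher and 2 lower, with a median of 0.24 and a largest value of 0.94, against 1.83 for *Isg15*. Those called higher included the locus of *Sumo3* and *Ube2g2*, *Ubd*, *Urm1* and *Nedd8*, and *Ufm1* was among those called lower. Leaving out any Scr siRNA library, or Yme1l siRNA replicate 2, gave 3 called higher, while DESeq2 gave 6 and the replicate block 7.

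**Figure D2:**
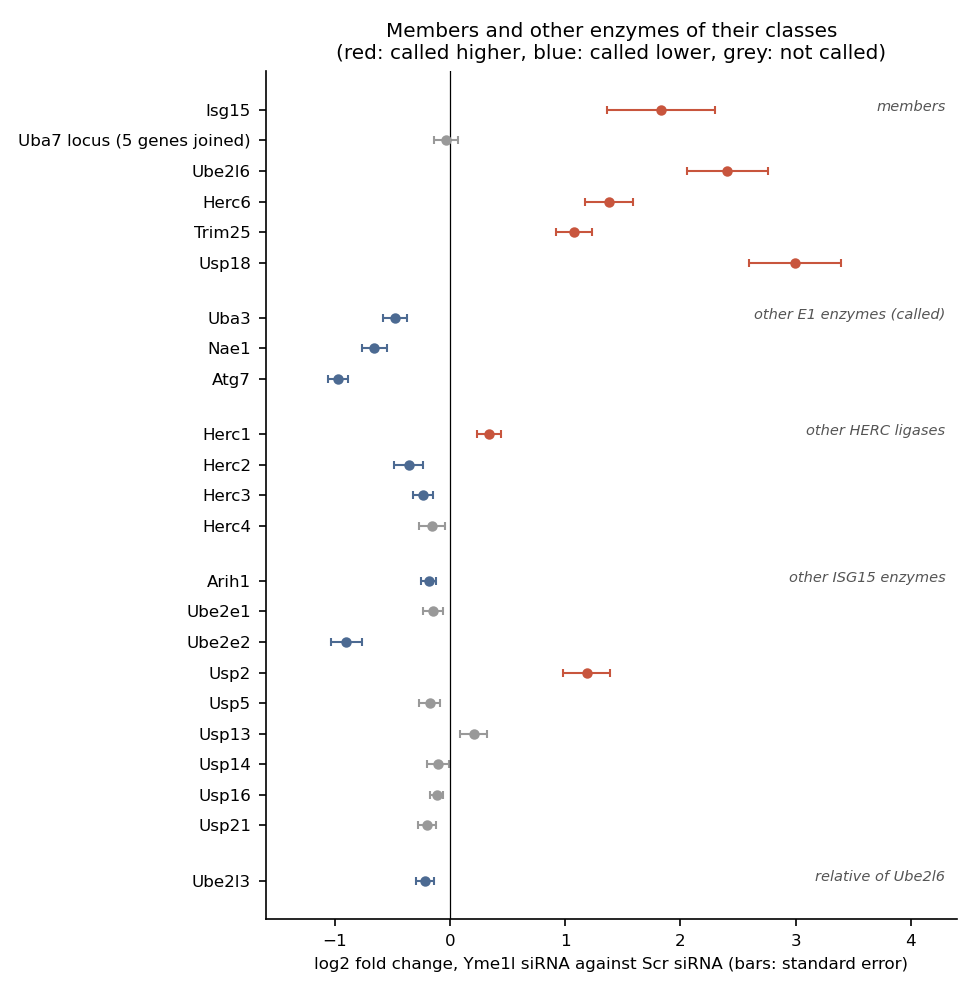
Log2 fold change of Yme1l siRNA over Scr siRNA with its standard error for the 6 members, the 3 other E1 genes that were called, the other HERC ligases, the other reported ISG15 enzymes and *Ube2l3*, coloured by call (red higher, blue lower, grey not called). The 5 called members lie between 1.08 and 2.99, and among the other genes drawn only *Usp2*, at 1.19, is above 1.

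Genes upstream of the members in the interferon response were read from lists made by function. *Stat2* rose by 1.64 (edgeR adjusted p = 0.00309), and the joined loci of *Irf9* with *Rnf31* and of *Ifnar2* with *Il10rb* and *Gm21970* were at 1.19 and 0.47, both called higher. The receptor gene *Ifnar1*, at −0.05, was not called (edgeR adjusted p = 0.559). The kinase genes *Jak1* and *Tyk2* were at −0.20 and −0.27, with calls that depended on single libraries. *Jak1* passed only without Yme1l siRNA replicate 3 and *Tyk2* only without Yme1l siRNA replicate 2 when 1 library was left out (edgeR adjusted p otherwise 0.0529 to 0.0997), and the calls were lost in 3 and 2 of 7 other fits. *Ifnb1*, which encodes interferon beta, had 3, 1 and 0 counts in Scr siRNA cultures and 37, 60 and 11 in Yme1l siRNA cultures (edgeR adjusted p = 0.00233). Its lowest treated culture was replicate 3, as it was for the 6 member loci.

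Of the 5 genes in the list of *Ifnb1* and interferon regulatory factors, 4 were called higher, against 28.4% of all loci tested, and *Irf3*, at −0.20, was not. *Irf7* went from 17.7 ± 9.97 to 140 ± 63.8 CPM, a log2 fold change of 2.98 close to that of *Usp18*, and *Irf1* and *Irf5* were at 0.54 and 0.52. The call for *Irf5* was lost without Scr siRNA replicate 2 or 3 or Yme1l siRNA replicate 1 or 2 (edgeR adjusted p 0.0541 to 0.07). *Irf3*, *Irf5* and *Irf7* each overlap an expressed gene on the other strand.

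Of 5 genes for partners of TRIM25, 2 were called higher (28.4% of all loci tested), *Ddx58* for RIG-I at 1.26 and *Zc3hav1* for the antiviral protein ZAP at 0.82, and *Rnf135*, another ligase for RIG-I, was called lower at −0.59 (29.6% of all loci tested were called lower). *Mavs* was at −0.21 and *Khnyn* at −0.003, neither called. Free ISG15 outside the cell binds the integrin LFA-1. The gene of its beta chain, *Itgb2*, rose from 3.61 ± 0.32 to 11.7 ± 0.60 CPM (log2 fold change 1.69, edgeR adjusted p = 1.78e-05), while that of its alpha chain, *Itgal*, had at most 13 counts and was not tested. It entered the test, and was called higher, when any Scr siRNA library or Yme1l siRNA replicate 1 was left out.

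Proteins that have been reported to carry ISG15 were represented by 22 genes, of which 10 were called higher, 7 lower and 5 not called, against 28.4% higher and 29.6% lower of all loci tested, with a median log2 fold change of 0.17. The 4 with the smallest adjusted p were *Ccnd1* for cyclin D1 at 1.04, *Mb21d1* for the DNA sensor cGAS at 1.49, *Mapk3* for ERK1 at −1.07 and *Pcna* at 0.56. Transcripts say nothing of how much of these proteins carried ISG15.

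The members lie on 5 chromosomes, with *Herc6* and *Usp18* far apart on chromosome 6, so each has its own neighbours. Of the 12 nearest tested loci on either side, 6 were called higher, 2 lower and 4 were not called, against 28.4% higher and 29.6% lower of all loci tested. Closest to *Isg15* were *Agrn*, 1.94 kb away and not called at 0.37 (edgeR adjusted p = 0.106), and *AW011738*, 2.49 kb away, which rose from 0.684 ± 0.059 to 2.53 ± 1.12 CPM (log2 fold change 1.88, edgeR adjusted p = 0.00227). The latter was the largest change among the neighbours and of the same size as that of *Isg15*, at a level far lower. Beside *Usp18*, *Tuba8* rose by 1.46 and *Slc6a12* was not called. The other neighbours not called were *Nt5c3*, 553 kb from the *Herc6* locus, and *Dgke*, 14.9 kb from *Trim25*. The 2 called lower were *Gmppb*, next to the *Uba7* locus, at −0.72 and *Pyurf*, next to *Herc6*, at −0.64. Without Yme1l siRNA replicate 3, *Agrn*, *Nt5c3* and *Slc6a12* were called higher (edgeR adjusted p 0.00827, 0.0105 and 0.035), and *Agrn* also without Scr siRNA replicate 1 (edgeR adjusted p = 0.0493). *Agrn* was called higher with DESeq2 (adjusted p = 0.0383), with no filter (edgeR adjusted p = 0.049) and with the replicate block (edgeR adjusted p = 0.00595) as well. *Gm19426*, near *Ube2l6* and among the 6 called higher, lost its call without Scr siRNA replicate 1 or 2 or Yme1l siRNA replicate 1 or 3 (edgeR adjusted p 0.053 to 0.0593).

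Likeness of pattern was measured as Pearson's r of log2 CPM over the 6 libraries among 11440 loci, as a description only, since the 6 points fall into the groups compared. The loci most like *Isg15* were *Flrt1* (r = 0.997), *Ccdc127* (0.996), *Lingo1* (0.996), *Ltbp2* (0.995) and *Gm15710* (0.993). None of these is a member, and the nearest member was *Usp18* in place 124 (r = 0.961), followed by *Trim25* in place 129 (0.959), *Ube2l6* in place 289 (0.934) and *Herc6* in place 964 (0.860). *Usp18* had *Bst2* (r = 0.999), *Trim25* (0.999), *Emp1* (0.999), *Oasl2* (0.998) and *Oas1a* (0.998) nearest to it, so that the ligase *Trim25* followed the protease more closely than any locus but 1. *Oas1a* is 97.6% identical to *Oas1g* over 1861 bases. *Gm15710* is 99.8% identical to *Rpl13* and to *Gm12918* over 636 bases and overlaps *Uso1* on the other strand, so its pattern may not be its own, and *Flrt1*, *Ccdc127* and *Ltbp2* also overlap genes on the other strand. The *Uba7* locus was far from both, with r of 0.245 to *Isg15* and 0.099 to *Usp18*.

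Markers of cell types were read beside the members, and of all loci tested 28.4% were called higher and 29.6% lower. Of 8 fibroblast markers 6 were tested, 5 were called lower and *Vim* was not called (except without Scr siRNA replicate 3, edgeR adjusted p = 0.0334), with a median log2 fold change of −0.75. Their summed level was 26087, 22767 and 20969 CPM in Scr siRNA cultures 1, 2 and 3 and 15363, 15160 and 12838 CPM in Yme1l siRNA cultures 1, 2 and 3, with *Col1a1* the most abundant. Collagen transcripts were thus abundant, as in fibroblasts, but *Thy1* had at most 1 count in a library and *Lum* at most 15. The summed level of 7 leukocyte and macrophage markers was 208, 198 and 193 CPM in the controls and 286, 273 and 278 CPM in the treated cultures, mostly from *Csf1r*, the 1 of 4 tested that was called higher (log2 fold change 0.74). *Csf1r* overlaps *Hmgxb3* on the other strand. *Adgre1* had 0 counts in every library, where a count of 0 allows up to 3, and *Ptprc* and *Itgam* had at most 3. The 4 epithelial markers summed to at most 1.33 CPM, and *Krt8*, the most abundant in treated cultures, was called higher (1, 1 and 1 counts against 24, 31 and 23). The 4 endothelial markers summed to between 3.79 and 4.08 CPM in the controls and between 5.68 and 7.81 CPM in the treated cultures, with *Tek* the most abundant, and *Tek* and *Kdr* of 3 tested called higher. The part of these shifts in the members' changes was not tested.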

How the data were processed

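The authors mapped the reads to GRCm38 with HISAT2 2.0.4, assembled transcripts with StringTie 1.3.3 and deposited raw counts per locus without normalization. The program that counted the reads, and how it used the strand, are not stated. The authors also deposited Cuffdiff 2.2.1 output, whose FPKM values are pooled over the 3 libraries of a group. All 6 libraries were mapped to their group, and 635 of the 51499 loci join several gene names. Libraries held 37260605 to 45205207 counts.

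Counts were compared with edgeR 4.0.16 in R 4.3.3, with TMM factors, filterByExpr (a minimum of 10 counts, 15 in total, 14499 loci kept), the quasi-likelihood test and Benjamini-Hochberg adjustment at 0.05. The biological coefficient of variation was 0.131. A standard error is the log2 fold change over the square root of F. Within-library ratios used exact permutation tests in SciPy 1.17.1 with Python 3.11.15. Between libraries of the same group, chi-square per degree of freedom was 10.4 to 75.5, so no library is a copy of another in its group. Libraries of different groups were not compared in this way. Transcript lengths came from GENCODE M21, promoters from RefSeq (GRCm38.p6) and near-identical transcripts (at least 95% over 300 bases) from BLAST 2.17.0. Figures were drawn with matplotlib 3.10.9.

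Alternatives were DESeq2 1.42.0, limma-voom (limma 3.58.1), RLE and upper-quartile factors, no filter, a mean of at least 50 counts, a threshold of 0.01, the replicate number as a block, leaving out each library, 5 added to counts and the longest transcript as length. The Cuffdiff test needs reads and was left out.

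The members and all lists were chosen with earlier results of these data known. Named genes were the members, *Yme1l1*, *Ifnb1*, *Ube2l3*, genes of lists of at most 9, the 4 smallest adjusted p of longer lists, the nearest tested loci, and the 5 loci most like *Isg15* and *Usp18* among loci whose mean log2 CPM was 1 or more. *Ubd* and *Nedd8* were named after their values were seen. Some genes that these rules would name are not reported here. The other E1 genes drawn in the figure were limited to those called. Likeness, the exact permutation test and the motif search were checked on made-up input. The edgeR, DESeq2 and limma-voom fits were tested on simulated counts. DESeq2 called more unchanged loci there than first allowed. After that result was seen, the limit was replaced by a different one that applied to edgeR only.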

Additional observations from a re-analysis of the deposited data

How the results depend on the processing

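The 5 called members and *Yme1l1* kept their direction and their call in all 6 fits that left out 1 library and in the 7 other fits (DESeq2, limma-voom, RLE factors, upper-quartile factors, no filter, a mean of at least 50 counts, and the replicate block). The largest adjusted p was 0.0331 for *Isg15*, 0.00513 for *Herc6*, 0.00387 for *Trim25*, 0.00364 for *Ube2l6* and 0.00297 for *Usp18*. The joined *Uba7* locus was not called in any of these fits (adjusted p 0.262 to 0.996). At a threshold of 0.01 all 5 were called as well. With the replicate block, 8687 loci were called, and deviations from the group means correlated by 0.041, 0.116 and 0.192 between libraries of the same replicate number.

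Counts in short lists moved. Of the other ISG15 enzymes 1 was lower with DESeq2, RLE factors, upper-quartile factors, no filter and a mean of at least 50 counts, and 3 were lower with the replicate block. Of the ubiquitin-like modifiers 6 were higher with DESeq2 and 7 with the replicate block. Of the other E1 genes 1 was higher with limma-voom, upper-quartile factors and a mean of at least 50 counts. Of the HERC genes 1 was lower with DESeq2 and no filter, and 0 with a mean of at least 50 counts. Of *Jak1* and *Tyk2* 1 was lower with RLE factors, upper-quartile factors and no filter, and 0 with a mean of at least 50 counts. With the replicate block 1 interferon regulatory factor and 2 TRIM25 partners were lower. With no filter 2 LFA-1 genes and 2 epithelial markers were higher. With a mean of at least 50 counts, which leaves fewer loci, 0 epithelial and 1 endothelial markers were higher.

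Leaving out 1 library gave 1 to 2 higher and 1 to 4 lower ISG15 enzymes, 3 to 4 higher ubiquitin-like modifiers, 0 to 1 higher E1 genes, 0 to 1 higher and 0 to 2 lower HERC genes, 0 to 1 of *Jak1* and *Tyk2* lower and 1 to 2 higher LFA-1 genes. In the longer lists it gave 6 to 7 higher and 9 to 13 lower E2 genes, and 11 to 14 higher and 9 to 12 lower USP genes. Of the reported ISG15 targets 9 to 11 were higher and 5 to 7 lower.

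Signs turned at loci that were not called. *Khnyn* was at 0.00351 with DESeq2, 0.00479 with limma-voom, 0.00350 with RLE factors, 0.0176 with upper-quartile factors, 0.0301 with a mean of at least 50 counts and 0.00679 with the replicate block. *Dgke* was at 0.000329, 0.0102, 0.000887, 0.0137, 0.0283 and 0.00181 in the same order. With 1 library left out the log2 fold change ran from −0.13 to 0.065 for the joined *Uba7* locus, −0.032 to 0.064 for *Uba1*, −0.033 to 0.22 for *Uba2*, −0.023 to 0.073 for *Uba6*, −0.11 to 0.12 for *Khnyn*, −0.22 to 0.17 for *Dgke*, −0.82 to 0.0092 for *Lyz2*, −0.40 to 0.13 for *Cd68* and −0.23 to 0.020 for *Ppm1k*.

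By the longest transcript, CPM per kb in Scr siRNA and Yme1l siRNA cultures was 9.79 and 51.9 for *Ube2l6*, 7.89 and 20.5 for *Herc6*, 9.64 and 76.6 for *Usp18*, 62.1 and 53.4 for *Ube2l3* and 4.76 and 4.04 for *Herc3*. Other causes of these shifts were not tested. The counts are of transcripts only, so conjugates of ISG15 were not measured, and 3 cultures a group limit the exact permutation test of a ratio to p = 0.1.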
